A study of Mus musculus with 8 samples.

Results

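The genotype effect shared by both treatments was measured in all 8 bulk RNA-seq samples of the series. It was defined as the genotype term of an additive model with genotype and treatment, which compared 4 samples from WT mice with 4 samples from Unc93b1 3d/3d mice. Raw counts per gene were used, and 16620 of the 26939 genes in the joined tables passed the filter on low counts. The samples were tumor-associated macrophages (TAMs), taken on day 21 from tumors of EO771, a mouse breast cancer cell line. The sort kept viable cells with the markers CD45, CD11b and F4/80 that lacked Gr-1. WT were C57BL/6J mice obtained from a supplier, and Unc93b1 3d/3d mice were homozygous for the 3d allele in every cell and came from another laboratory, so that the allele and any other difference between both colonies cannot be told apart. The hosts were female and between 8 and 14 weeks old. Each genotype had 2 control samples and 2 samples from mice given αMARCO. αMARCO was 100 µg of the rat IgG1 antibody ED31 against the scavenger receptor MARCO, injected on days 3, 6, 9 and 12. The control mice are labelled untreated or PBS, while the treatment protocol names an isotype antibody, so their injection is not settled. A control sample was pooled from the TAMs of 3 mice, and pooling of the αMARCO samples is not given in the sources used here. The title of Unc93b1 3d/3d control replicate 2 gives 3d/3d, while a second label reads 3d/4d, and the title was used.

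UNC93B1 is a chaperone of the endoplasmic reticulum that brings the nucleic acid-sensing Toll-like receptors (TLRs) to endosomes. There TLR3, TLR7 and TLR9 detect RNA and DNA that the cell has taken up. The 3d allele carries a missense mutation that disrupts binding to these receptors, so that they fail to reach the endosome and do not signal. In macrophages, TLR signals pass through MyD88 or TRIF and IRAK kinases to NF-κB, which induces cytokines such as IL-12 and TNF and its own inhibitors, and to interferon regulatory factors, which induce type I interferon.

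The library totals ranged from 15182618 to 26411936 counts, and 3 counts, the smallest amount taken as detected, corresponded to 0.114 to 0.198 CPM before scaling, counting error only. CPM are counts scaled to the library total with TMM factors, and not to gene length. One library stood apart. Unc93b1 3d/3d αMARCO replicate 2 lay at a Euclidean distance of 132 from its replicate, while replicates of the other groups were 56.1 to 74.6 apart. It held 5.30% of its counts in genes shorter than 1 kb (3.32% to 4.12% in the other 7 samples) and 5.34% in genes of ribosomal proteins (2.68% to 4.15%), and its mean-corrected levels fell with gene length (Spearman correlation −0.242 across genes). The part of these features in the results was not tested, so each main result is also given from 7 samples without this library, where the lone Unc93b1 3d/3d αMARCO sample is assumed to vary like the others. Of the total sum of squares of log2 CPM over the 8 samples, genotype held 21.8%, treatment 20.3%, their interaction 19.6%, and the spread within groups 38.2%. Nothing in the labels says whether the samples of a group came from separate experiments, so P values measure the spread between these samples. Macrophage genes were abundant in each sample: the summed level of the 11 genes of macrophage identity was 9630 to 10500 CPM in WT and 9640 to 14400 CPM in Unc93b1 3d/3d samples. Of the 11, 0 were called, against 1.87% of all tested genes. The levels of both genotypes did not overlap for 3 of them, 1 higher in WT and 2 lower (7.23% over all tested genes). Their median log2 fold change, WT over Unc93b1 3d/3d, was -0.09 over the 8 samples and -0.02 in the 7 samples.

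A gene counted as called where its adjusted P did not exceed 0.05 (edgeR's quasi-likelihood test, Benjamini-Hochberg) and it had an absolute log2 fold change (log2FC, WT over Unc93b1 3d/3d) of at least 0.5. Over the 8 samples, 310 of 16620 genes were called, or 1.87%. Of these, 226 were higher in WT (1.36% of the tested genes) and 84 were higher in Unc93b1 3d/3d TAMs (0.505%). Both shares are the background for every count of called list genes below. The changes toward WT were also larger: 91 genes were higher in WT by a log2FC of at least 2, against 10 genes higher in Unc93b1 3d/3d TAMs. The median log2FC over all tested genes was −0.03. The levels of the 4 WT and the 4 Unc93b1 3d/3d samples did not overlap for 262 of the 310 genes, while this held for 1202 of all 16620 genes, or 7.23%. Calling genes on these same samples favors levels without overlap, so the higher share among the 310 is no separate result. Of the 310 genes, 301 could be tested in the 4 control and the 4 αMARCO samples separately, and all 301 had the same direction in both, as the choice by an additive term over both treatments favors.

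The number of called genes depended on single samples. With 1 of the 8 samples left out in turn, the number of called genes ranged from 87, without WT control replicate 2, to 1102, without Unc93b1 3d/3d αMARCO replicate 2. All 310 genes kept their direction in each of the 8 fits, which their choice on these samples favors, and 80 of them were called in each, 68 higher in WT and 12 lower. Of the 310 calls, 169 remained without WT control replicate 1, 85 without WT control replicate 2, 115 and 107 without Unc93b1 3d/3d control replicates 1 and 2, 134 and 115 without WT αMARCO replicates 1 and 2, and 191 and 307 without Unc93b1 3d/3d αMARCO replicates 1 and 2. In the 7 samples without Unc93b1 3d/3d αMARCO replicate 2, 626 genes were higher in WT and 476 lower. Leaving out the library that stood apart raised the number of calls and lost 3 of the 310.

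**Figure D1:**
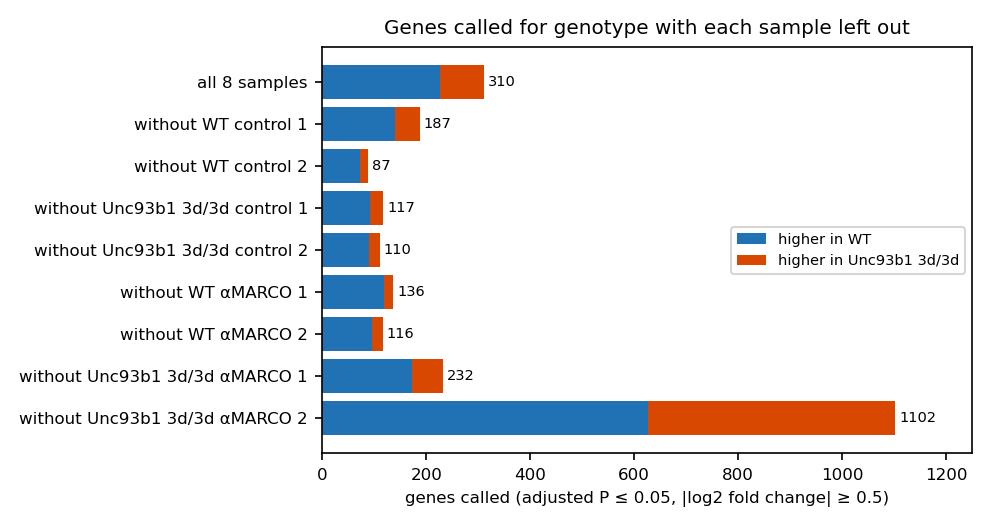
Number of genes called for genotype (horizontal axis) in all 8 samples and with each sample left out (rows), split by direction. The count was 310 over 8 samples, fell to between 87 and 232 when any sample but Unc93b1 3d/3d αMARCO replicate 2 was left out, and rose to 1102 without that sample.

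Unc93b1 itself (ENSMUSG00000036908, chromosome 19, 3935186 to 3949340 on GRCm38) is transcribed from the 3d allele, so its mRNA level is no check of the mutation. It had 849 and 966 CPM in WT control, 750.1 and 708 in WT αMARCO, 539.5 and 660.2 in Unc93b1 3d/3d control and 558 and 641 CPM in Unc93b1 3d/3d αMARCO. All 4 WT samples lay above all 4 Unc93b1 3d/3d samples. The log2FC of Unc93b1 was 0.44 ± 0.14 (SE, adjusted P = 0.201, edgeR), which missed the call. In the 7 samples it was called with 0.52 (adjusted P = 0.0145 in edgeR). Of the 41 tested genes of the endosomal TLR pathway, 1 was called higher in WT and 0 lower, with a median log2FC of 0.12 against −0.03 over all genes. The called gene was Irak3, which encodes the inhibitory kinase IRAK-M, with 33.7 and 40.9 CPM in WT control, 36.3 and 34.6 in WT αMARCO, 18.5 and 16.6 in Unc93b1 3d/3d control and 24.1 and 15.5 CPM in Unc93b1 3d/3d αMARCO. For Irak3 the log2FC was 0.96 ± 0.16 (SE, adjusted P = 0.0232, edgeR). The call of Irak3 was kept in 2 of the 8 fits with 1 sample left out, with an adjusted P of up to 0.112 from edgeR. The receptors that depend on UNC93B1 were measured in every sample. Tlr9, the receptor for unmethylated CpG DNA, had 99.9 and 112 CPM in WT control and 118 and 105 in WT αMARCO, against 100.5 and 96.2 in control and 87.2 and 27.5 CPM in αMARCO samples of Unc93b1 3d/3d mice. The log2FC of Tlr9 was 0.53 ± 0.33 (SE, adjusted P = 0.627, edgeR). Tlr7, a receptor for single-stranded RNA, had 67.5 and 82.3 CPM in WT control and 71 and 74 in WT αMARCO, against 103 and 102 in control and 82.3 and 62.5 CPM in αMARCO samples of Unc93b1 3d/3d mice. For Tlr7 the log2FC was -0.23 ± 0.15 (SE, adjusted P = 0.653, edgeR). Tlr3, which binds double-stranded RNA, had a log2FC of -0.27 ± 0.12 (SE, adjusted P = 0.413, edgeR), and Tlr8 of 0.86 ± 0.32 (SE, adjusted P = 0.296, edgeR). The levels of both genotypes overlapped for Tlr7, Tlr8 and Tlr9, while for Tlr3 every Unc93b1 3d/3d sample lay above every WT sample. Mean levels of Tlr3 were 32.4 CPM in WT control and 30.3 in WT αMARCO, against 37.3 in control and 38.3 CPM in αMARCO samples of Unc93b1 3d/3d mice. Over this list the levels did not overlap for 6 of 41 genes, 5 higher in WT and 1 lower (7.23% over all tested genes). For Tlr9, one Unc93b1 3d/3d sample, αMARCO replicate 2, was far below the rest, and without it the log2FC was 0.21 (adjusted P = 0.176 in edgeR). Without it 4 genes of this list were called higher in WT: Unc93b1, Irak3, Tlr8 and Ctsk. The adaptor Myd88 and the factors Irf5 and Irf7 were not called, with log2FCs of 0.15, 0.13 and 0.12.

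Of the 12 named genes with the largest differences toward WT, 6 encode receptors or adhesion molecules of the cell surface: Fcrl5, Itgad, Ptprm, Cd300e, Klra17 and Siglece. The share of such genes among all tested genes was not counted, so this number describes the 12 genes only. Fcrl5 (ENSMUSG00000048031, chromosome 3, 87435773 to 87500678), an Fc receptor-like molecule best known from B cells, had 184 and 232 CPM in WT control, 73.3 and 65.9 in WT αMARCO, 0.126 and 0.254 in Unc93b1 3d/3d control and 0.407 and 0.136 CPM in Unc93b1 3d/3d αMARCO. It was near the detection limit in all 4 Unc93b1 3d/3d samples, which held 18 counts together against 10908 in WT. Its log2FC was 8.98 ± 0.39 (SE, adjusted P = 6.3e-05, edgeR), and the ratio of pooled CPM was 526 (95% exact binomial interval 333 to 887, counting error only). Itgad, the integrin subunit CD11d, had 34.6 and 27.7 CPM in WT control, 3.98 and 5.21 in WT αMARCO, 0.0628 and 0.203 in Unc93b1 3d/3d control and 0.0452 and 0.136 CPM in Unc93b1 3d/3d αMARCO. The log2FC of Itgad was 7.12 ± 0.42 (SE, adjusted P = 0.000232, edgeR). The 4 Unc93b1 3d/3d samples held 8 counts of Itgad together, for a ratio of pooled CPM of 149 (interval 75.4 to 346). Ptprm, a receptor-type tyrosine phosphatase, had 26.2 and 38.7 CPM in WT control and 13.8 and 12.9 in WT αMARCO, against 0.943 and 0.457 in control and 0.136 and 0.068 CPM in αMARCO samples of Unc93b1 3d/3d mice. For Ptprm the log2FC was 5.95 ± 0.34 (SE, adjusted P = 0.000232, edgeR). Cd300e, an activating receptor of monocytes, had 558 and 616 CPM in WT control, 255 and 267 in WT αMARCO, 10.1 and 7.57 in Unc93b1 3d/3d control and 13.9 and 9.73 CPM in Unc93b1 3d/3d αMARCO. All WT samples were far above every Unc93b1 3d/3d sample. The log2FC of Cd300e was 5.25 ± 0.36 (SE, adjusted P = 0.000338, edgeR).

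The levels of both genotypes did not overlap in any of these 12 genes, which the rule for naming them required. Klra17, a member of the Ly49 lectin-like family, had 30.1 and 44.7 CPM in WT control and 14 and 14.8 in WT αMARCO, against 1.32 and 0.66 in control and 0.497 and 0.885 CPM in αMARCO samples of Unc93b1 3d/3d mice. For Klra17 the log2FC was 4.88 ± 0.31 (SE, adjusted P = 0.000263, edgeR). Pydc3, a PYRIN domain gene of the interferon-inducible Ifi200 cluster, had 75.9 and 68.1 CPM in WT control and 62.6 and 68 in WT αMARCO, against 2.51 and 0.812 in control and 2.67 and 1.36 CPM in αMARCO samples of Unc93b1 3d/3d mice. The log2FC of Pydc3 was 5.21 ± 0.33 (SE, adjusted P = 0.000263, edgeR). Asb2, a subunit that gives an E3 ubiquitin ligase its specificity, had 58.8 and 75.1 CPM in WT control and 32.5 and 30.8 in WT αMARCO, against 1.51 and 1.22 in control and 1.94 and 2.45 CPM in αMARCO samples of Unc93b1 3d/3d mice. For Asb2 the log2FC was 4.70 ± 0.36 (SE, adjusted P = 0.000626, edgeR). The remaining 5 of the 12 genes with the largest differences were the serine protease gene Htra4 (log2FC 3.98), Il12b (3.60), Tmem26 (2.86), Ankdd1a (2.84) and Siglece (2.81), an inhibitory receptor for sialic acid. Siglece had 155 and 184 CPM in WT control and 72.5 and 79.2 in WT αMARCO, against 15 and 12.2 in control and 17.6 and 20.8 CPM in αMARCO samples of Unc93b1 3d/3d mice. Ly49 and Ifi200 genes have close paralogs, so the assignment of reads to Klra17 and Pydc3 is uncertain. Among these 12 genes, all but Il12b and Ankdd1a were called in each of the 8 fits with 1 sample left out, and Il12b and Ankdd1a in 3 and 4 of them, with adjusted P of up to 0.133 and 0.086 from edgeR. All 12 were called in the 7 samples. For Cd300e, Siglece, Asb2 and Il12b the difference in the 7 samples depended on treatment and was larger in control than in αMARCO samples (interaction adjusted P = 0.00105, 0.00224, 0.0218 and 0.00236 from edgeR).

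**Figure D2:**
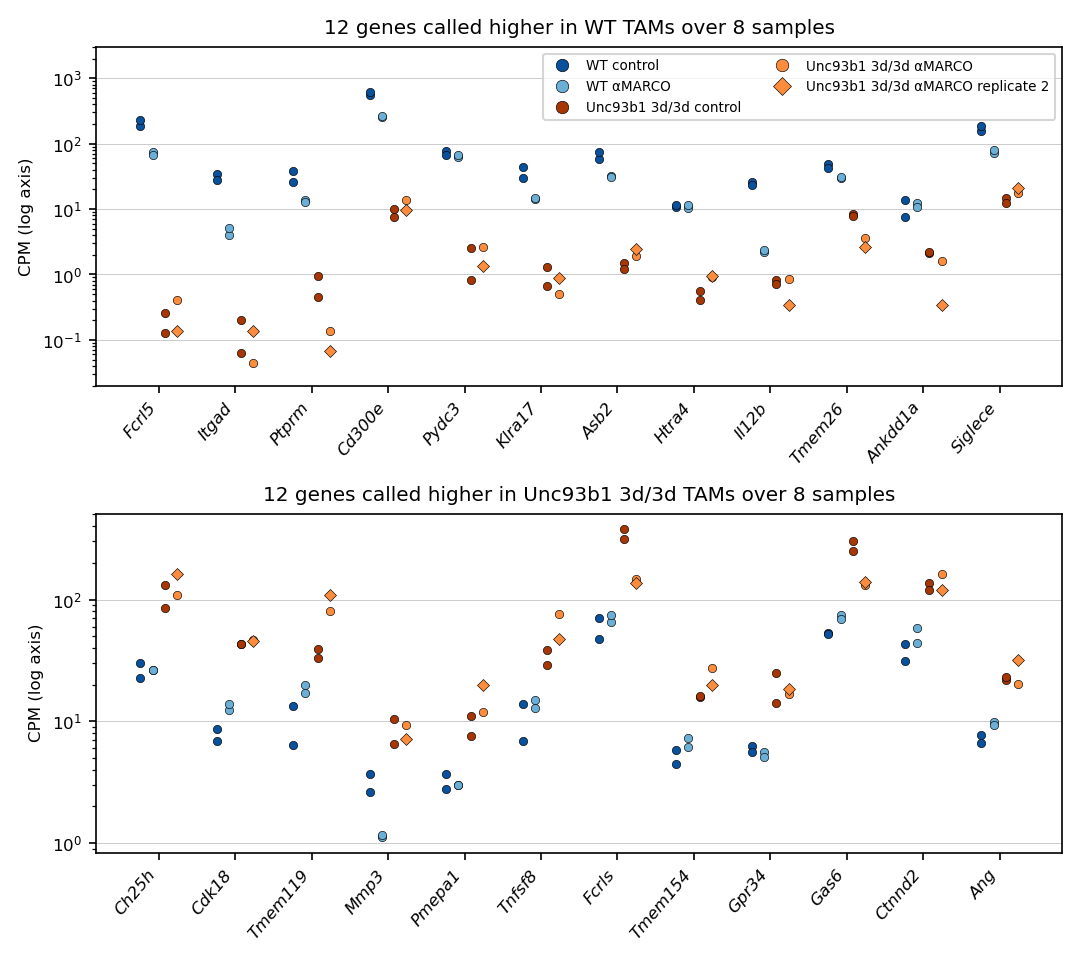
Level in CPM (vertical log axis) of the 12 genes with the largest log2FC in each direction among the genes that met the naming rule, 1 point per sample, coloured by group, with Unc93b1 3d/3d αMARCO replicate 2 as a diamond. For Fcrl5 the WT samples lay between 65.9 and 232 CPM and the Unc93b1 3d/3d samples at or below 0.407 CPM. In no gene shown did the levels of both genotypes overlap, which the naming rule required.

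NF-κB is the factor that TLR signals activate. Of 32 tested genes of the NF-κB response, 12 were called higher in WT and 0 lower, against 1.36% and 0.505% of all tested genes. Their median log2FC was 0.57, with 0.69 in the 4 control and 0.52 in the 4 αMARCO samples, and for 18 of the 32 genes the levels of both genotypes did not overlap (7.23% over all tested genes). The called genes were the subunits Nfkb1 (0.64), Nfkb2 (0.57) and Rel (0.73), the regulators Nfkbia (1.15), Nfkbiz (1.17), Tnfaip3 (0.83), Tnip1 (0.97), Tnip3 (0.66) and Zc3h12a (0.55), the survival gene Birc3 (0.57) and the cytokines Tnf (0.79) and Il12b (3.60), with the log2FC of each in brackets.

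Nfkbiz, which encodes the nuclear IκBζ that NF-κB needs for a second set of targets, had 530 and 673 CPM in WT control, 781 and 812 in WT αMARCO, 279.8 and 241 in Unc93b1 3d/3d control and 395 and 335 CPM in Unc93b1 3d/3d αMARCO. The log2FC of Nfkbiz was 1.17 ± 0.14 (SE, adjusted P = 0.00417, edgeR). Nfkbia, which encodes the inhibitor IκBα, had 549.6 and 508 CPM in WT control, 286 and 310.1 in WT αMARCO, 201 and 181 in Unc93b1 3d/3d control and 154 and 183 CPM in Unc93b1 3d/3d αMARCO. For Nfkbia the log2FC was 1.15 ± 0.16 (SE, adjusted P = 0.0109, edgeR). Tnip1, which restrains NF-κB together with the ubiquitin-editing enzyme of Tnfaip3, had 124 and 161 CPM in WT control and 126 and 125 in WT αMARCO, against 74.1 and 66.9 in control and 67 and 65 CPM in αMARCO samples of Unc93b1 3d/3d mice. The log2FC of Tnip1 was 0.97 ± 0.12 (SE, adjusted P = 0.00494, edgeR). In all 3 genes every WT sample lay above every Unc93b1 3d/3d sample. Il12b, the p40 chain of IL-12 and IL-23, was at 26.1 and 23.2 CPM in WT control and 2.23 and 2.39 CPM in WT αMARCO, and at 0.817 and 0.711 CPM and 0.858 and 0.34 CPM in the matching Unc93b1 3d/3d samples. Tnf had 134 and 179.7 CPM in WT control and 147 and 147 in WT αMARCO, against 88 and 81.4 in control and 78.8 and 104 CPM in αMARCO samples of Unc93b1 3d/3d mice. For Tnf the log2FC was 0.79 ± 0.14 (SE, adjusted P = 0.028, edgeR). Genes of the list that were not called included Il1b (0.10, adjusted P = 0.973 from edgeR), Ptgs2 (0.37, adjusted P = 0.473) and the neutrophil attractants Cxcl2 and Cxcl3 (0.14 and -0.09). The calls of Nfkbiz and Tnip1 held in each fit with 1 sample left out. The number of called list genes ranged from 2 to 20 over these fits, and the highest number, all higher in WT, came without Unc93b1 3d/3d αMARCO replicate 2, in which Traf1, Cd83, Il6, Relb, Cd40, Ccl3, Ccl4 and Sod2 joined the 12. Of the 12 genes, Nfkbiz and Tnip1 alone kept the call without WT control replicate 2 and without either Unc93b1 3d/3d control replicate, and 7 kept it only without Unc93b1 3d/3d αMARCO replicate 2: Nfkb1, Nfkb2, Rel, Tnip3, Tnf, Birc3 and Zc3h12a.

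**Figure D3:**
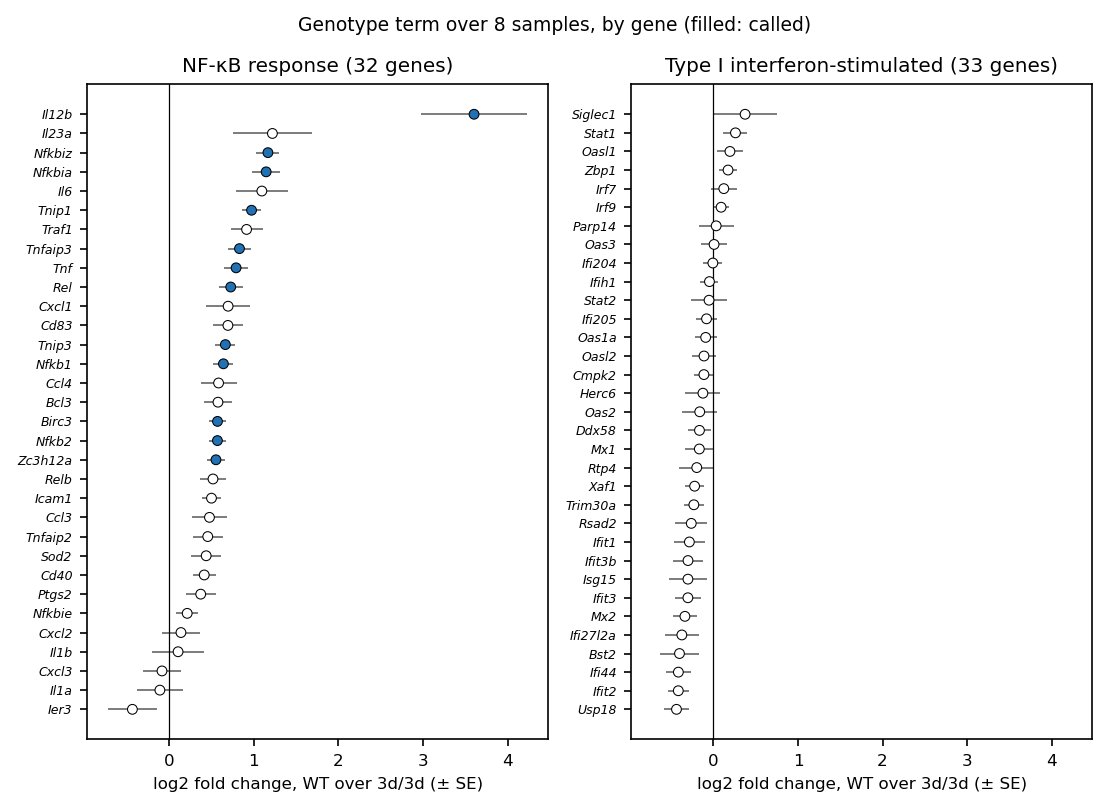
Log2 fold change of the genotype term over 8 samples (horizontal axis, WT over Unc93b1 3d/3d, with its standard error) for each tested gene of 2 lists, filled where the gene was called. Of the NF-κB response genes 29 of 32 lay above 0 and 12 were called, while 0 of the 33 type I interferon-stimulated genes were called.

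Upstream sequences of these genes were read from RefSeq promoters on GRCm38.p6, to show the binding letters of NF-κB beside the values. The 250 bases before the start were searched on both strands for a form of the κB motif, GGG followed by any 2 bases and TTTCC, in the 8033 tested genes whose RefSeq start lay within 100 bases of the gene start in the files. It was present in 120 of them, or 1.49%. Of the 226 genes called higher in WT, 117 had a promoter and 4 of these held the motif (3.42%), and of the 84 higher in Unc93b1 3d/3d TAMs 39 had a promoter and 0 held it. Among the 12 called NF-κB response genes, 8 had a promoter and the motif stood in Nfkbia, Nfkb2 and Rel (37.5%). Over the whole list it stood in 7 of 22 promoters (31.8%), among them those of the uncalled Cxcl1, Cxcl2, Cxcl3 and Il6. A second search used letters of the interferon-stimulated response element, GAAA followed by any 2 bases and GAAA. These stood in 6 of the 117 promoters of genes higher in WT (5.13%) and 1 of the 39 of genes higher in Unc93b1 3d/3d TAMs (2.56%), against 2.81% over all. In the 22 promoters of the NF-κB response they stood in 0. A match of either motif describes its letters and not a bound site, and neither motif search had a test. The stretches that match the κB motif are shown 5′ to 3′ on the strand of the gene, with the motif in capitals and up to 10 bases on either side.
Nfkbia, chr12:55492657-55492686, strand -, motif beginning 29 bases before the start: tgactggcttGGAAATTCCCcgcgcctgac
Nfkb2, chr19:46304716-46304736, strand +, motif beginning 11 bases before the start: ggggccgaaaGGGGCTTTCCc
Rel, chr11:23771041-23771070, strand -, motif beginning 91 bases before the start: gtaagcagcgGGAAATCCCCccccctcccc
In Nfkbia and Rel the match reads on the opposite strand, and in Nfkb2 on the strand of the gene. Nfkb2 itself had 213 and 187 CPM in WT control, 164 and 174 in WT αMARCO, 135 and 126 in Unc93b1 3d/3d control and 118 and 117 CPM in Unc93b1 3d/3d αMARCO. Rel had 208 and 197 CPM in WT control, 259 and 300.5 in WT αMARCO, 149.5 and 114 in Unc93b1 3d/3d control and 176 and 139 CPM in Unc93b1 3d/3d αMARCO. Both were higher in all 4 WT than in all 4 Unc93b1 3d/3d samples.

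Genes inducible by interferon-γ and by type I interferon were counted separately. Of 26 tested genes inducible by interferon-γ, 5 were called higher in WT and 0 lower (1.36% and 0.505% over all tested genes), with a median log2FC of 0.49. Of 33 tested type I interferon-stimulated genes, 0 were called over the 8 samples and 0 in the 7 samples, with medians of -0.16 and -0.16. Cxcl9, a chemokine that attracts CXCR3+ T cells, had 123 and 167 CPM in WT control, 121 and 108 in WT αMARCO, 16 and 49.96 in Unc93b1 3d/3d control and 14.3 and 21 CPM in Unc93b1 3d/3d αMARCO. The log2FC of Cxcl9 was 2.42 ± 0.34 (SE, adjusted P = 0.0108, edgeR). Every WT sample lay above every Unc93b1 3d/3d sample. Serpina3g, an inhibitor of cathepsins, had 146 and 198 CPM in WT control and 83.6 and 78.7 in WT αMARCO, against 16.1 and 30.8 in control and 10.7 and 17.7 CPM in αMARCO samples of Unc93b1 3d/3d mice. For Serpina3g the log2FC was 2.70 ± 0.25 (SE, adjusted P = 0.00128, edgeR). The guanylate-binding proteins Gbp2, Gbp4 and Gbp2b had log2FCs of 0.95, 1.01 and 2.55, and reads of these near relatives may be shared. Cxcl10 had 362 and 359.5 CPM in WT control and 421 and 414 in WT αMARCO, against 404 and 392 in control and 469 and 648 CPM in αMARCO samples of Unc93b1 3d/3d mice. The log2FC of Cxcl10 was -0.28 ± 0.14 (SE, adjusted P = 0.492, edgeR). Ifit2, Isg15 and Mx1 of the type I list had log2FCs of -0.42, -0.30 and -0.17, with adjusted P of 0.157, 0.745 and 0.859 from edgeR. In the 7 samples, 15 of the 26 interferon-γ genes were called, all higher in WT. These held 4 of the 5 genes above, and Gbp2b was not called there, with a log2FC of 2.46 (adjusted P = 0.062 in edgeR). The call of Serpina3g held with any sample left out, that of Cxcl9 in 7 of the 8 fits, lost without WT control replicate 2 (adjusted P = 0.0574 from edgeR), and that of Gbp4 in 3 and of Gbp2 and Gbp2b in 2 each.

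Chemokines and cytokines moved in both directions. Of 26 tested chemokine ligands, 4 were higher in WT (Cxcl9, Ccl5, Cxcl13 and Xcl1) and 2 higher in Unc93b1 3d/3d TAMs (Pf4 and Ccl12), with a median of 0.02. The shares over all tested genes were 1.36% and 0.505%. Ccl5, a chemokine made by T cells and macrophages, had 128 and 122 CPM in WT control and 42.6 and 45.4 in WT αMARCO, against 25.7 and 17 in control and 14.8 and 21.8 CPM in αMARCO samples of Unc93b1 3d/3d mice. For Ccl5 the log2FC was 1.92 ± 0.29 (SE, adjusted P = 0.0133, edgeR). Cxcl13, which attracts B cells, was detected in the 4 WT samples with 119 counts in all and had 0 counts in the 4 Unc93b1 3d/3d samples, so that it was at least 34.4-fold higher in WT (against 3 counts over the group). Pf4, the platelet factor that macrophages also make, had 227 and 234 CPM in WT control and 296 and 295 in WT αMARCO, against 585 and 759.7 in control and 378 and 837 CPM in αMARCO samples of Unc93b1 3d/3d mice. The log2FC of Pf4 was -1.29 ± 0.25 (SE, adjusted P = 0.0377, edgeR). Among the receptors, 0 of 17 were higher in WT, and Ccr1 and Cx3cr1 were higher in Unc93b1 3d/3d TAMs. Ccr1 had 258 and 161 CPM in WT control and 308 and 321 in WT αMARCO, against 395 and 431 in control and 536 and 683 CPM in αMARCO samples of Unc93b1 3d/3d mice. For Ccr1 the log2FC was -0.97 ± 0.17 (SE, adjusted P = 0.0264, edgeR). Il10, the anti-inflammatory cytokine, was called higher in WT like Il12b, with 32.3 and 49.1 CPM in WT control and 45.6 and 47.5 in WT αMARCO, against 19.6 and 21.8 in control and 18.8 and 25.9 CPM in αMARCO samples of Unc93b1 3d/3d mice. The log2FC of Il10 was 1.02 ± 0.17 (SE, adjusted P = 0.0197, edgeR). Socs3, a feedback inhibitor of cytokine receptors, had 838 and 870 CPM in WT control and 782 and 832 in WT αMARCO, against 472 and 458 in control and 532 and 562 CPM in αMARCO samples of Unc93b1 3d/3d mice. For Socs3 the log2FC was 0.72 ± 0.13 (SE, adjusted P = 0.0258, edgeR). The groups did not overlap for Ccl5, Pf4, Ccr1, Il10 or Socs3. With 1 sample left out in turn, Ccl5 kept its call in 6, Ccr1 in 3, Pf4 in 2, Il10 in 2, Cxcl13 in 2 and Socs3 in 1 of the 8 fits, with adjusted P of up to 0.0813, 0.112, 0.173, 0.0937, 0.072 and 0.126 from edgeR, and all were called in the 7 samples.

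Nonclassical monocytes patrol the walls of blood vessels. Of 19 tested genes of these cells, 5 were called higher in WT (Cd300e, Spn, Adgre4, Klf2 and Clec4a1) and 0 lower, against 1.36% and 0.505% over all tested genes, with a median log2FC of 0.65. The summed level of this list was 3300 to 4050 CPM in WT and 1840 to 4730 CPM in Unc93b1 3d/3d samples. In bulk samples, fewer cells of a type and less RNA per cell cannot be told apart. The highest level was that of Unc93b1 3d/3d αMARCO replicate 2, which had 4730 CPM, above every WT sample, while the other 3 Unc93b1 3d/3d samples were at most 2100 CPM. Spn, the sialomucin CD43, had 133 and 165 CPM in WT control, 53.4 and 61.3 in WT αMARCO, 20.5 and 21.2 in Unc93b1 3d/3d control and 16.1 and 12.9 CPM in Unc93b1 3d/3d αMARCO. The log2FC of Spn was 2.41 ± 0.20 (SE, adjusted P = 0.000832, edgeR). Adgre4, an adhesion receptor, had 63 and 48.9 CPM in WT control and 19.1 and 19.6 in WT αMARCO, against 10.3 and 6.4 in control and 5.06 and 4.9 CPM in αMARCO samples of Unc93b1 3d/3d mice. For Adgre4 the log2FC was 2.36 ± 0.23 (SE, adjusted P = 0.00152, edgeR). Pecam1, the adhesion molecule CD31 of endothelium and monocytes, had 203 and 199 CPM in WT control and 107 and 106 in WT αMARCO, against 28.9 and 24.1 in control and 27.5 and 26.2 CPM in αMARCO samples of Unc93b1 3d/3d mice. The log2FC of Pecam1 was 2.46 ± 0.20 (SE, adjusted P = 0.000784, edgeR). Of 11 tested endothelial genes, Pecam1 was called higher in WT and 0 lower (1.36% and 0.505% over all tested genes), with a median log2FC of 0.285. Their summed level, Pecam1 included, was 272 to 381 CPM in WT and 152 to 195 CPM in Unc93b1 3d/3d samples. Cdh5, which defines endothelium, had 2.72 to 12.8 CPM over the 8 samples and a log2FC of -0.35 (adjusted P = 0.818 from edgeR). Which cells gave the Pecam1 reads was not tested. Fcgr4, the activating receptor for IgG2 that nonclassical monocytes carry, had 494 and 634 CPM in WT control and 348 and 339 in WT αMARCO, against 141 and 172 in control and 92.8 and 157 CPM in αMARCO samples of Unc93b1 3d/3d mice. For Fcgr4 the log2FC was 1.65 ± 0.20 (SE, adjusted P = 0.00494, edgeR). Nr4a1, the transcription factor on which nonclassical monocytes depend, was not called, with 583 and 477 CPM in WT control and 749.7 and 863 in WT αMARCO, against 411 and 309 in control and 663 and 918 CPM in αMARCO samples of Unc93b1 3d/3d mice. The log2FC of Nr4a1 was 0.29 ± 0.19 (SE, adjusted P = 0.651, edgeR). Pecam1 and Fcgr4 are not on this list of 19 genes. Cx3cr1, which nonclassical monocytes also express and which is not on the list either, was called in the opposite direction, higher in Unc93b1 3d/3d TAMs. Its values are given below. Of 18 tested classical monocyte genes, 0 were called, with a median of 0.01. Spn, Adgre4, Pecam1, Fcgr4 and Cd300e were called in each of the 8 fits with 1 sample left out, Klf2 in 2 and Clec4a1 in 1 (adjusted P of up to 0.126 and 0.172 from edgeR). In the 7 samples 12 of the 19 genes were called, all higher in WT. 

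Of 43 tested macrophage transcription factors, 3 were called higher in WT (Nr1h3, Pparg and Klf2) and 1 higher in Unc93b1 3d/3d TAMs (Bhlhe41). The shares over all tested genes were 1.36% and 0.505%, also for the other lists of this paragraph. Nr1h3, the oxysterol receptor LXRα, had 149 and 217 CPM in WT control, 155 and 154 in WT αMARCO, 42.7 and 59.9 in Unc93b1 3d/3d control and 36.9 and 47 CPM in Unc93b1 3d/3d αMARCO. For Nr1h3 the log2FC was 1.86 ± 0.17 (SE, adjusted P = 0.00123, edgeR). Pparg, a lipid-sensing nuclear receptor, had 82.3 and 102 CPM in WT control and 65.4 and 63.5 in WT αMARCO, against 27.1 and 29.4 in control and 26.2 and 40.01 CPM in αMARCO samples of Unc93b1 3d/3d mice. The log2FC of Pparg was 1.33 ± 0.20 (SE, adjusted P = 0.0133, edgeR). Of 17 tested genes of cholesterol efflux and LXR targets, 3 were higher in WT (Nr1h3, Pltp and Abcg1) and Apoe was higher in Unc93b1 3d/3d TAMs, so that known targets of LXR were called in both directions. Pltp, a phospholipid transfer protein, had 449 and 524 CPM in WT control and 336 and 338 in WT αMARCO, against 184 and 215 in control and 156 and 174 CPM in αMARCO samples of Unc93b1 3d/3d mice. For Pltp the log2FC was 1.16 ± 0.13 (SE, adjusted P = 0.00302, edgeR). Ch25h, which makes the LXR ligand 25-hydroxycholesterol, was higher in Unc93b1 3d/3d TAMs and is described with them. Of 21 tested genes of iron and heme, Spic and Slc11a1 were higher in WT and Trf, which encodes transferrin, was higher in Unc93b1 3d/3d TAMs. Spic, the transcription factor of red pulp macrophages, had 43.1 and 65.4 CPM in WT control and 33.6 and 40.04 in WT αMARCO, against 17.7 and 13.2 in control and 6.6 and 11.4 CPM in αMARCO samples of Unc93b1 3d/3d mice. The log2FC of Spic was 1.93 ± 0.22 (SE, adjusted P = 0.00404, edgeR). Slc11a1, the phagosomal metal transporter NRAMP1, had 439.5 and 639 CPM in WT control and 588 and 605 in WT αMARCO, against 206 and 215 in control and 186 and 194 CPM in αMARCO samples of Unc93b1 3d/3d mice. For Slc11a1 the log2FC was 1.50 ± 0.15 (SE, adjusted P = 0.00183, edgeR). In none of Nr1h3, Pparg, Pltp, Spic and Slc11a1 did the genotypes overlap. Nr1h3, Pltp, Spic and Slc11a1 were called in each of the 8 fits, Pparg in 5 (adjusted P of up to 0.0775 from edgeR).

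Among the 84 genes higher in Unc93b1 3d/3d TAMs, Ch25h had 30.2 and 22.6 CPM in WT control, 26.3 and 26.5 in WT αMARCO, 86 and 131 in Unc93b1 3d/3d control and 109.6 and 163 CPM in Unc93b1 3d/3d αMARCO. The log2FC of Ch25h was -2.20 ± 0.20 (SE, adjusted P = 0.00122, edgeR). Cdk18, a cyclin-dependent kinase, had 6.85 and 8.71 CPM in WT control and 12.4 and 13.8 in WT αMARCO, against 43.4 and 42.9 in control and 46.9 and 45.6 CPM in αMARCO samples of Unc93b1 3d/3d mice. For Cdk18 the log2FC was -2.14 ± 0.17 (SE, adjusted P = 0.000771, edgeR). Every Unc93b1 3d/3d sample lay above every WT sample for both genes, which the rule for naming them required. Tmem119 and Gpr34, best known as genes of brain microglia, were among the 12 largest differences. Tmem119 had 13.4 and 6.32 CPM in WT control, 17 and 20 in WT αMARCO, 32.9 and 39.2 in Unc93b1 3d/3d control and 80.5 and 108 CPM in Unc93b1 3d/3d αMARCO. The log2FC of Tmem119 was -2.11 ± 0.24 (SE, adjusted P = 0.00416, edgeR). Gpr34, a receptor for lysophosphatidylserine, had 6.32 and 5.6 CPM in WT control and 5.59 and 5.06 in WT αMARCO, against 14.1 and 24.9 in control and 16.6 and 18.4 CPM in αMARCO samples of Unc93b1 3d/3d mice. For Gpr34 the log2FC was -1.72 ± 0.20 (SE, adjusted P = 0.00404, edgeR). After these values were seen, other genes known from microglia were looked up. P2ry12, Cx3cr1, Fcrls, Mef2c and Bhlhe41 had called differences in the same direction, with log2FCs of -0.85, -1.26, -1.78, -0.98 and -1.02, while Trem2 (log2FC -1.50, adjusted P = 0.0707 from edgeR), P2ry13 (-0.39), Tgfbr1 (-0.30), Sparc (-0.48) and Olfml3 (0.51) were not called. Since this group was chosen on its values, it has no test. P2ry12 had 20.6 and 17.6 CPM in WT control and 14.9 and 17.3 in WT αMARCO, against 31.2 and 38.1 in control and 29.9 and 27.6 CPM in αMARCO samples of Unc93b1 3d/3d mice, and Cx3cr1 had 14.9 and 16.6 CPM in WT control and 11.2 and 13.9 in WT αMARCO, against 24.7 and 34 in control and 41.9 and 35.1 CPM in αMARCO samples of Unc93b1 3d/3d mice.

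The remaining genes with the largest differences toward Unc93b1 3d/3d were the matrix metalloproteinase gene Mmp3 (-2.10), Pmepa1 (-1.98), a target and inhibitor of TGF-β signaling, Tnfsf8 (-1.94), the ligand of CD30, the Fc receptor-like gene Fcrls (-1.78), Tmem154 (-1.72), Gas6 (-1.65), the catenin gene Ctnnd2 (-1.62) and the ribonuclease gene Ang (-1.55), as log2FCs. Ang overlaps Rnase4, which was also called, and Gas6, Gpr34, P2ry12 and Cx3cr1 overlap other genes. The use of strand in the counting is not given in the sources used here, so these counts may hold reads of the partner. Gas6, which bridges dying cells to the receptors AXL and MERTK, had 53.4 and 52.5 CPM in WT control and 75 and 69.8 in WT αMARCO, against 249.7 and 303 in control and 132 and 139 CPM in αMARCO samples of Unc93b1 3d/3d mice. The log2FC of Gas6 was -1.65 ± 0.28 (SE, adjusted P = 0.0255, edgeR). The genotypes lay closer together under αMARCO, and the interaction in the 7 samples was 1.54 (adjusted P = 0.000818 from edgeR). Tnfsf8 had 13.9 and 6.82 CPM in WT control and 14.8 and 12.9 in WT αMARCO, against 38.8 and 29 in control and 76.1 and 47.8 CPM in αMARCO samples of Unc93b1 3d/3d mice. For Tnfsf8 the log2FC was -1.94 ± 0.26 (SE, adjusted P = 0.00877, edgeR). Apoe, the apolipoprotein of lipid-loaded macrophages, had 2477 and 2512 CPM in WT control, 2188 and 2628 in WT αMARCO, 5614 and 6798 in Unc93b1 3d/3d control and 3751 and 8423 CPM in Unc93b1 3d/3d αMARCO. The log2FC of Apoe was -1.33 ± 0.25 (SE, adjusted P = 0.0328, edgeR). Spp1, the matrix protein osteopontin, had 524 and 355 CPM in WT control, 328 and 365 in WT αMARCO, 912 and 745 in Unc93b1 3d/3d control and 1187 and 1295 CPM in Unc93b1 3d/3d αMARCO. For Spp1 the log2FC was -1.38 ± 0.23 (SE, adjusted P = 0.0206, edgeR). Both belong to the list of lipid-associated macrophages. Of its 19 tested genes, 2 were higher in Unc93b1 3d/3d TAMs and 0 higher in WT (0.505% and 1.36% over all tested genes), with a median of -0.13. Itgb5, an integrin subunit that takes part in clearing dying cells, had 195 and 183 CPM in WT control and 199 and 209 in WT αMARCO, against 275 and 320.4 in control and 291 and 366 CPM in αMARCO samples of Unc93b1 3d/3d mice. The log2FC of Itgb5 was -0.67 ± 0.12 (SE, adjusted P = 0.0305, edgeR). Of these genes, Ch25h, Cdk18, Tmem119, Gpr34, Tmem154, Ctnnd2, Ang and Tnfsf8 were called in each of the 8 fits with 1 sample left out, Mmp3 and Pmepa1 in 4 and 4, Gas6 and Spp1 in 3 and 3, and Fcrls, Apoe and Itgb5 in 2, 2 and 2, with adjusted P of up to 0.0994, 0.0574, 0.13, 0.104, 0.115, 0.143 and 0.145 from edgeR.

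Over all 52 gene lists, 73 of the 879 distinct genes tested were called, 58 higher in WT and 15 lower, and 20 lists had no called member. Of all 16620 tested genes, 1.87% were called, 1.36% higher in WT and 0.505% lower, which is the background for each list of this paragraph. The lists were chosen with earlier results of these data known, which favors a higher share. Of 14 tested genes of MHC class II presentation, 0 were called, with a median log2FC of -0.20, which was 0.35 in control and -0.81 in αMARCO samples. Their summed level in Unc93b1 3d/3d αMARCO replicate 2 was 35900 CPM, against 12400 to 19300 CPM in the other 7 samples, and in the 7 samples the median was 0.05 with 0 called. Of 23 tested inflammasome and IL-1 genes, 0 were called over the 8 samples (median 0.03). Pycard, the inflammasome adaptor ASC, had 119 and 137 CPM in WT control and 86.2 and 83.9 in WT αMARCO, against 31 and 37.2 in control and 33 and 77.4 CPM in αMARCO samples of Unc93b1 3d/3d mice. For Pycard the log2FC was 1.26 ± 0.33 (SE, adjusted P = 0.11, edgeR). Unc93b1 3d/3d αMARCO replicate 2 lay close to WT αMARCO, and in the 7 samples Pycard was called with 1.69 (adjusted P = 4.12e-05 in edgeR) and Casp1 with 0.64 (adjusted P = 0.00272 in edgeR). Nlrp3 was not called in either, with log2FCs of 0.03 and -0.08. Of 22 tested genes of resident-like macrophages, Pf4 and Gas6 were higher in Unc93b1 3d/3d TAMs and 0 higher in WT, with medians of -0.83 in control and 0.20 in αMARCO samples. In the list of checkpoint and B7 ligands, 0 of 18 were called, and Cd274, which encodes PD-L1, had 324 and 410.1 CPM in WT control and 442 and 416 in WT αMARCO, against 302 and 270.5 in control and 204 and 181 CPM in αMARCO samples of Unc93b1 3d/3d mice. The log2FC of Cd274 was 0.76 ± 0.18 (SE, adjusted P = 0.0927, edgeR). In the 7 samples Cd274 was called with 0.64 (adjusted P = 0.0366 in edgeR).

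Some transcripts of cells other than macrophages differed with genotype. Of 25 tested T cell genes, 9 were called higher in WT and 0 lower (1.36% and 0.505% over all tested genes), with a median log2FC of 1.94. Their summed level was 111 to 354 CPM in WT and 97.6 to 231 CPM in Unc93b1 3d/3d samples, which overlapped, and the levels of both genotypes did not overlap for only 1 of the 25 genes (7.23% over all tested genes). Cd8a, which marks cytotoxic T cells, had 15.7 and 20.3 CPM in WT control, 0.534 and 0.734 in WT αMARCO, 1.32 and 0.355 in Unc93b1 3d/3d control and 0.136 and 0.136 CPM in Unc93b1 3d/3d αMARCO. For Cd8a the log2FC was 3.89 ± 0.56 (SE, adjusted P = 0.0116, edgeR). The 2 WT αMARCO samples lay within the range of the Unc93b1 3d/3d control samples, and WT was higher within each treatment. Cd3g, a chain of the T cell receptor complex, had 12.6 and 13.4 CPM in WT control and 1.21 and 1.51 in WT αMARCO, against 1.63 and 0.914 in control and 0.361 and 0.408 CPM in αMARCO samples of Unc93b1 3d/3d mice. The log2FC of Cd3g was 2.75 ± 0.38 (SE, adjusted P = 0.00956, edgeR). The calls of Cd8a and Cd3g were kept in 6 and 6 of the 8 fits, and both were lost without WT control replicate 2 and without Unc93b1 3d/3d control replicate 1 (adjusted P of up to 0.069 and 0.0624 from edgeR). Over the fits, between 0 and 16 T cell genes were called, and all 9 calls were lost without WT control replicate 2. Of 21 tested genes of NK cells and cytotoxic granules, Klrc1 and Xcl1 were higher in WT and the summed level was 255 and 237 CPM in WT control, 58.2 and 73.1 CPM in WT αMARCO and 49.7 to 89.2 CPM in Unc93b1 3d/3d samples. Of 13 tested B and plasma cell genes, Cd79b was higher in WT, with 36.7 and 41.2 CPM in WT control and 17.2 and 15.6 in WT αMARCO, against 2.26 and 2.89 in control and 3.79 and 6.19 CPM in αMARCO samples of Unc93b1 3d/3d mice. For Cd79b the log2FC was 2.79 ± 0.44 (SE, adjusted P = 0.0171, edgeR), while the summed level was 347 to 466 CPM in WT and 338 to 375 CPM in Unc93b1 3d/3d samples. The uncalled B cell genes Cd79a, Ms4a1 and Pax5 had group means of 0.102 to 0.435, 0.894 to 1.71 and 0.707 to 1.65 CPM. Which cells gave the Cd79b reads was not tested. Of 18 tested genes of mature migratory dendritic cells, Ccl5 and Cd200 were higher in WT (summed level 2190 and 1540 CPM in WT control, 953 and 1020 CPM in WT αMARCO and 868 to 968 CPM in Unc93b1 3d/3d samples). Of 15 tested neutrophil genes, Acod1 and Ltf were higher in WT (summed level 460 to 572 CPM in WT and 335 to 451 CPM in Unc93b1 3d/3d samples), and Acod1, which makes itaconate in macrophages, had 22.3 and 28 CPM in WT control and 44.5 and 43.6 in WT αMARCO, against 11.7 and 10.8 in control and 10.8 and 12.7 CPM in αMARCO samples of Unc93b1 3d/3d mice. Of 19 tested genes of fibroblasts and stroma, Thy1 was higher in WT and Lum higher in Unc93b1 3d/3d TAMs (summed level 89 to 309 CPM in WT and 185 to 456 CPM in Unc93b1 3d/3d samples). The median log2FC of this list was -0.69 over the 8 samples and -1.07 in the 7 samples, toward Unc93b1 3d/3d TAMs. Thy1 had a mean of 26.7 CPM in WT control and of 1.05 to 2.99 CPM in the other groups. Of 11 tested mammary tumor and epithelial genes 0 were called. The part of these cells in the other differences was not tested. The summed T cell level was 334 and 354 CPM in WT control and 111 and 151 in WT αMARCO, against 231 and 180 in control and 113 and 97.6 CPM in αMARCO samples of Unc93b1 3d/3d mice.

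**Figure D4:**
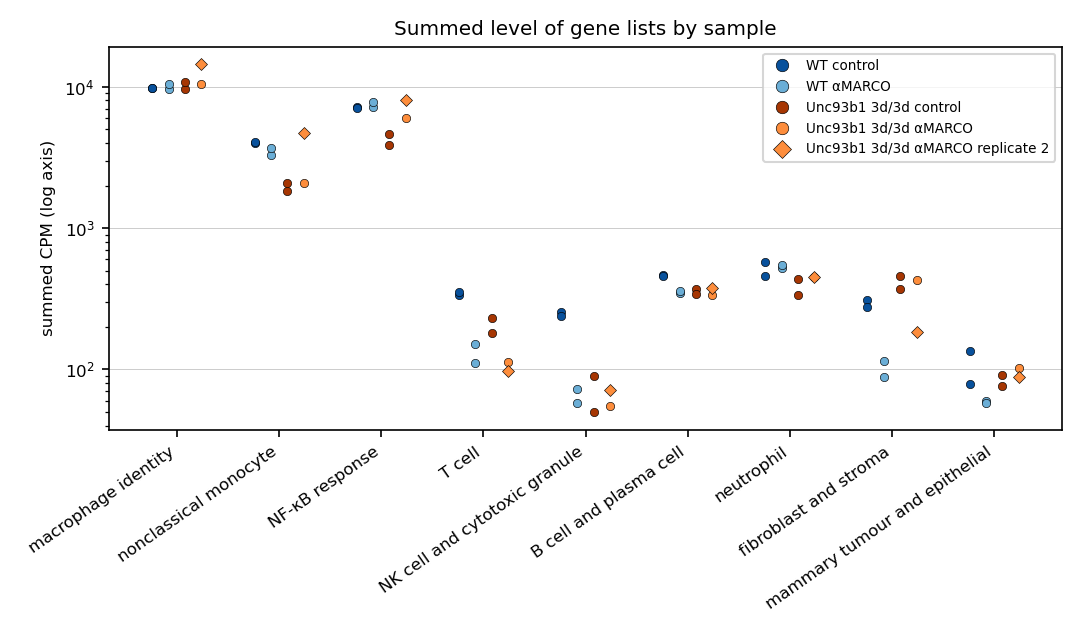
Summed CPM (vertical log axis) of 9 gene lists, 1 point per sample, coloured by group, with Unc93b1 3d/3d αMARCO replicate 2 as a diamond. The T cell list lay at 111 to 354 CPM in WT and 97.6 to 231 CPM in Unc93b1 3d/3d samples, and the macrophage identity list at 9630 to 10500 and 9640 to 14400 CPM.

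Whether the difference was the same under both treatments was tested with the interaction of genotype and treatment. Over the 8 samples 0 of 16620 genes were called, or 0%, with 2549 at an unadjusted P under 0.05 (edgeR), and DESeq2 called 208. The 4 control samples alone gave 2025 called genes of 15600, or 13%. The 4 αMARCO samples alone gave 0 of 15722, or 0%, with 1076 at an unadjusted P under 0.05 (edgeR), and DESeq2 called 215. The control and αMARCO fits share no sample, so their directions can be set side by side. Of the 2025 genes called in control samples, 1908 were tested in αMARCO samples and 1045 of these, or 54.8%, had the same direction there, as had 40.5% of the 13077 genes that were tested in both and not called in control samples. With the same direction and an unadjusted P of at most 0.05 in αMARCO samples there were 344 genes, and with the opposite direction 18. The share depended on the library that stood apart: with WT αMARCO set against Unc93b1 3d/3d αMARCO replicate 1 alone, 77.1% of the genes called in control samples had the control direction, and against replicate 2 alone 46.4% (on log2 of CPM plus 0.5). For the 301 called genes tested in both, the median absolute log2FC was 1.47 in control and 1.29 in αMARCO samples, and 186 of them differed more in control samples.

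**Figure D5:**
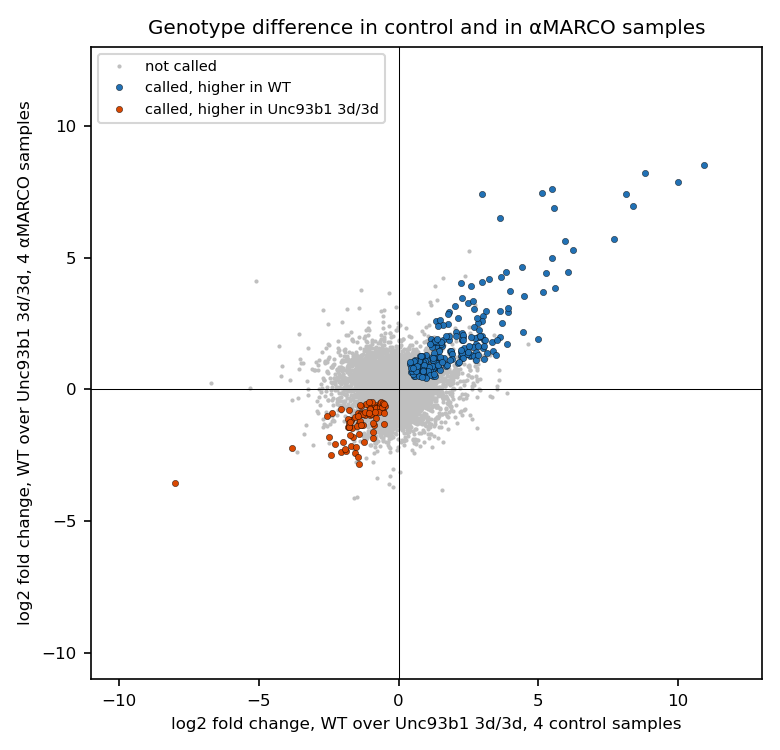
Log2 fold change of WT over Unc93b1 3d/3d in the 4 control samples (horizontal axis) against that in the 4 αMARCO samples (vertical axis), 1 point per gene tested in both, with the called genes in colour. The 301 called genes lie in the quadrants where both differences have the same direction, which is also what an additive term over both treatments selects.

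The called genes lay on each of the 19 autosomes and on the X chromosome. The share of tested genes called was lowest on chromosome 13, at 0.719%, and highest on chromosome 6, at 3.10%. Chromosome 6 holds 2 gene families of immune cells with several called members: 5 of 8 tested Gimap genes, GTPases of lymphocytes, and 4 of 19 tested Klr genes, lectin-like receptors of NK and myeloid cells, were higher in WT and 0 lower (1.36% and 0.505% over all tested genes). In the same direction, 9 of 25 T cell genes and 2 of 21 genes of NK cells and cytotoxic granules were called, and the part of these cells was not tested. On chromosome 19, which carries Unc93b1, 9 genes were called, or 1.74% of those tested there.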

How the data were processed

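The 8 samples were bulk RNA-seq libraries of sorted TAMs, and all were used. Per the labels and methods, reads were cleaned (fastp) and aligned to GRCm38 (HISAT2 2.0.5), and the authors deposited raw counts per gene from featureCounts 1.5.0. The deposited FPKM, in which the authors scaled counts to gene length and library total, entered no test. The deposited normalized counts, and the authors' fold changes and P values from DESeq2 1.40.2, were not used.

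Gene identifiers linked the 3 tables into 1 of 26939 genes, with 0 for a gene missing from a table. Of 95230 counts present in 2 tables, 0 differed. Tests used edgeR 4.0.16 in R 4.3.3 with TMM factors, filterByExpr on the 4 groups, robust quasi-likelihood fits and Benjamini-Hochberg adjustment over all tested genes. The additive model had genotype and treatment terms, and the interaction used 4 group means. The control and αMARCO samples were also fitted alone.

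Named genes were Unc93b1 and called endosomal TLR genes, the 12 protein-coding called genes with the largest change and the 5 with the highest level in each direction (mean of at least 5 CPM, no overlap of the genotypes, same direction under both treatments), up to 3 called genes per list, the 5 largest interactions in each direction, and list members shown for contrast. The interactions came from the 7 samples without Unc93b1 3d/3d αMARCO replicate 2, since 0 were called over the 8 samples. Genes outside this rule are named as chosen after their values were seen, or as called members of a list. The members and the 52 gene lists were chosen with earlier results of these data known. Alternatives were DESeq2 1.42.0, other size factors, filters, models and thresholds, a replicate block and each sample left out. Library weights in limma 3.58.1 and offsets for gene length and GC content were added after the data were seen. Promoters came from RefSeq. CPM carry no length scaling, so levels are compared within a gene only.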

Additional observations from a re-analysis of the deposited data

Results flagged for a closer look

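In the 7 samples without Unc93b1 3d/3d αMARCO replicate 2, the interaction of genotype and treatment was called for 587 genes, against 0 over the 8 samples. This is a test of the difference between the αMARCO and the control contrast, and the lone Unc93b1 3d/3d αMARCO sample is assumed to vary like the others. Of the 310 genes called for genotype over the 8 samples, 21 were among the 587, and of the 1102 called in the 7 samples 85 were. Abca1, a cholesterol exporter and LXR target, had 103 and 119.7 CPM in WT control and 249.5 and 259 in WT αMARCO, against 434 and 421 in control and 235 and 130.3 CPM in αMARCO samples of Unc93b1 3d/3d mice. The interaction of Abca1 was 2.08 ± 0.16 (SE, adjusted P = 6.5e-05, edgeR), so that Unc93b1 3d/3d TAMs were above WT in control samples and near WT in the αMARCO sample left. Dgat2, which completes the synthesis of triglycerides, had 10.3 and 7.04 CPM in WT control and 7.43 and 10.8 in WT αMARCO, against 126 and 118 in control and 10.7 and 13.7 CPM in αMARCO samples of Unc93b1 3d/3d mice. For Dgat2 the interaction was 3.63 ± 0.34 (SE, adjusted P = 0.00301, edgeR). The naming rule for interactions gave 0 genes over the 8 samples and was then applied to the 7 samples. Among the genes it gave there, Il12b and the signaling regulator Rgs16 had the largest interactions in the other direction, at -3.55 ± 0.46 and -3.58 ± 0.43 (SE). Rgs16 had 21.9 and 33.4 CPM in WT control and 2.77 and 3.24 in WT αMARCO, against 8.61 and 5.13 in control and 9.08 and 3.2 CPM in αMARCO samples of Unc93b1 3d/3d mice, and WT was the higher genotype in control samples only. The other genes given by the rule were Kcnh4 (3.01), Sumo2 (2.02) and Ppbp (2.01) with a positive interaction, and Serpinb6b (-2.84), Ly75 (-2.80) and Npr1 (-2.75) with a negative one.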

How the results depend on the processing

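The count of 310 called genes stayed within 1.5 times with DESeq2's size factors (311), a filter of at least 10 counts in every library (243), offsets for gene length and GC content (372), no fold change threshold (311) and an absolute log2FC of at least 1 (218). It moved to 844 with DESeq2, which called all 310, 469 with a filter of 1 count, 512 with the averaged contrast of 4 group means, 1340 with limma library weights, 2025 in the control samples alone and 0 in the αMARCO samples alone, and ranged from 87 to 1102 with 1 sample left out. WT was the higher genotype in 72.9% of the calls, and in 56.8% without Unc93b1 3d/3d αMARCO replicate 2. The 0 interaction calls became 208 with DESeq2, 152 with the filter of 1 count, 37 with library weights and 2 with the offsets, and ranged from 0 to 6415, without Unc93b1 3d/3d αMARCO replicate 1, when 1 sample was left out. The control count was 364 as a contrast of the 4 group model. The αMARCO count was 215 with DESeq2, 108 as a contrast of the 4 group model, and 6 to 6258 with 1 sample left out. The 73 called list genes were 126 with the averaged contrast, 252 with library weights and 20 to 197 with 1 sample left out. A replicate block gave 207 calls over the 8 samples, 2395 in control and 97 in αMARCO samples, and 0 interaction calls. The labels do not say that the replicate numbers mark a shared batch, and correlations of deviations between same-numbered samples ran from −0.0768 to 0.135, so the numbers were not taken to pair the samples. No named gene that was called changed direction, while the uncalled Spi1, Fcgr1 and Aif1 did under some settings. Of 85 named genes, 83 kept their side of the threshold with DESeq2 and 71 with the replicate block, and 0 to 40 lost their call with 1 sample left out. The cause of these changes was not tested. With 2 samples per group and 1 that stood apart, an uncalled gene cannot be taken as unchanged.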

Other observations

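Several genes outside the lists were called in each of the 8 fits with 1 sample left out, and were chosen after their values were seen. Pou2f2, which encodes the transcription factor OCT2 of B cells and macrophages, had 213 and 253 CPM in WT control, 287 and 304 in WT αMARCO, 58 and 52.8 in Unc93b1 3d/3d control and 72.6 and 57.6 CPM in Unc93b1 3d/3d αMARCO. Its log2FC was 2.13 ± 0.13 (SE, adjusted P = 0.000232, edgeR). Adgre5, the adhesion receptor CD97, had 123 and 122 CPM in WT control and 79.8 and 97.6 in WT αMARCO, against 41.9 and 37.9 in control and 24.7 and 23.6 CPM in αMARCO samples of Unc93b1 3d/3d mice. Acp5, the tartrate-resistant acid phosphatase of osteoclasts and macrophages, had 355 and 422 CPM in WT control and 222 and 244 in WT αMARCO, against 72.5 and 86.7 in control and 50.4 and 77.1 CPM in αMARCO samples of Unc93b1 3d/3d mice. The levels of both genotypes did not overlap in these genes, and the log2FCs of Adgre5 and Acp5 were 1.75 and 2.08. The formyl peptide receptors Fpr1 and Fpr2, which sense bacterial and mitochondrial peptides, had log2FCs of 2.80 and 2.09. Of 3 tested members of this family, 2 were called higher in WT and 0 lower (1.36% and 0.505% over all tested genes). The family was chosen for these 2 genes, so its count has no test. Tcf7l2, a transcription factor of Wnt signaling, the kinase genes Fyn and Map3k8, and Gimap4 also stood higher in WT, at 1.47, 1.18, 0.96 and 2.85. Map3k8 encodes TPL2, which links TLR signals to ERK. In the opposite direction, Arhgap24, a regulator of the GTPase Rac, had 8.85 and 8.49 CPM in WT control and 13.9 and 12.2 in WT αMARCO, against 24.9 and 21.3 in control and 31.8 and 32.2 CPM in αMARCO samples of Unc93b1 3d/3d mice. The log2FC of Arhgap24 was -1.35 ± 0.12 (SE, adjusted P = 0.00123, edgeR).

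Negr1, a neuronal adhesion molecule, had 596 counts over the 4 WT samples and 0 over the 4 Unc93b1 3d/3d samples, which is at least 172-fold higher in WT against 3 counts over the group.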
